A study of Papio anubis with 60 samples.

Results

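The regions described here are stretches of the baboon genome that bear H3K27me3 in the peak list of induced pluripotent stem cells (iPSC) and in which neither heterochromatin nor promoter marks were called. They were chosen from the peak lists themselves. On chromosomes 1 to 20, iPSC H3K27me3 peaks were joined within 3 kb to domains. Domains of at least 500 bp were kept where no H3K9me3 peak of either cell type overlapped them, no H3K4me3 peak of either cell type lay within 1 kb, and no H3K27me3 peak of embryonic stem cells (ESC) overlapped them. The rule kept 132 of 43616 domains, 0.303% of them by number and 0.0818% of their base pairs, a total of 111.6 kb. The members are called by the mark alone, since no Polycomb protein was measured.

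H3K27me3, trimethylated lysine 27 of histone H3, is laid down by Polycomb repressive complex 2 and is read by Polycomb repressive complex 1. In pluripotent cells it is best known from CpG-rich promoters of developmental genes, many of which also bear H3K4me3, the mark of active and poised promoters. H3K9me3 marks constitutive heterochromatin and silenced repeats, and H3K27ac, acetylation of the residue that Polycomb methylates, marks active promoters and enhancers, so that 1 histone tail cannot carry both lysine 27 marks.

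The study mapped these 4 marks by chromatin immunoprecipitation with sequencing in the olive baboon, Papio anubis. The ESC came from lines B4 and B15 and the iPSC from lines 160-2 and M14939#3, with no treatment, and all 4 lines were grown on feeder cells. Each library was made from 50000 cells with micrococcal nuclease. For every mark and for the input, both cell types had 6 libraries, 3 replicates of each of 2 lines, which gave 60 libraries in 10 groups, 12 of them inputs. The deposited values are 8 peak lists, each for a single mark in a single cell type, so the spread between replicates cannot be seen, no p-value can be given, and cell type and cell line cannot be told apart. The depth behind the lists is unknown. Wilson intervals at 95% are given for shares. They hold counting error alone and take regions as independent, which neighbours are not.

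The lists differ in length, which bears on every choice by presence or absence of a peak. On the autosomes the iPSC list held 131632 H3K27me3 peaks and the ESC list 51150. H3K27me3 peaks covered 3.47% of the autosomes in iPSC and 2.08% in ESC, H3K9me3 6.96% and 8.46%, H3K4me3 5.42% and 5.20%, and H3K27ac 2.10% and 3.95%.

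The exclusion of H3K9me3 removed most iPSC domains. Of the 43616 domains, 38985 (89.4%) overlapped an H3K9me3 peak of either cell type, and 36186 (83.0%) overlapped peaks of both. The remaining 4631 domains (10.6%) were mostly close to H3K4me3. Of all 43616 domains, 16220 (37.2%) had no H3K4me3 peak within 1 kb. Among the 4631, 4447 had an H3K4me3 peak within 1 kb and 184 had none. Of those 184, 52 overlapped an ESC H3K27me3 peak and 132 did not. The H3K9me3 of ESC played a part in these counts, since 6259 domains lay off the H3K9me3 peaks of iPSC alone. By contrast, 15473 domains met every criterion except that they overlapped H3K9me3, and these are used below as a comparison set.

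The same rule was turned around, with ESC H3K27me3 domains as the start and iPSC H3K27me3 as the exclusion. Of 15368 ESC domains of at least 500 bp, 8672 (56.4%) lay off H3K9me3, and 1215 (7.91%) met the whole mirrored rule. The shorter ESC list thus gave more such domains than the longer iPSC list. When the iPSC list was cut by −log10 q to as many autosomal peaks as the ESC list, 13 members were left. H3K9me3 peaks of both cell types overlapped 26.3% of the ESC domains, against the 83.0% of iPSC domains.

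Beside all iPSC domains, the members were narrow and their peaks weak. Their width ranged from 500 bp to 3709 bp, with a median of 570 bp (interval of the median 547 to 598 bp) and quartiles of 528 and 808 bp. Of the 132 members, 78 (59.1%) were narrower than 600 bp, 28 were at least 1000 bp wide and 8 at least 2000 bp. Over all iPSC domains the median width was 1483 bp, and 13.4% were narrower than 600 bp. Members made of a single peak numbered 105 (79.5%), where 48.3% of all iPSC domains were single peaks. The sets most like the members were narrow too. The 52 domains kept out only by ESC H3K27me3 had a median width of 761.5 bp, and 73.1% were single peaks. The mirrored ESC set had a median of 774 bp, against 2838.5 bp over all ESC domains. The rule sets the lower end of these widths, and a wider domain has more room to meet an excluding peak, so the widths are a description of what was chosen.

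The share of domains that became members fell with width. It was 1.33% of the 5844 domains of 500 to under 600 bp (interval 1.07 to 1.66%) and 0.264% of the 9844 domains of 600 to under 1000 bp (0.180 to 0.387%). It was 0.194% of the 10310 domains of 1000 to under 2000 bp (0.126 to 0.299%) and 0.0454% of the 17618 domains of 2000 bp or more (0.0230 to 0.0896%). In ESC the mirrored shares in the same order were 25.4%, 15.0%, 9.61% and 2.85%. The order was the same in both cell types, and the ESC share was the higher at each width.

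The authors' peak caller gave each peak a fold enrichment over background and a −log10 q, where q is its false discovery rate. The mean fold of a member had a median of 2.49 with quartiles of 2.39 and 2.63 and ran from 1.95 to 3.66, against a median of 2.77 over all iPSC domains. The highest −log10 q in a member had a median of 1.59 with quartiles of 1.41 and 1.94, close to the lower limit of the list, which is 1.0. A peak with a −log10 q of at least 2 was present in 28 members (21.2%), where the same held for 75.4% of all iPSC domains. At a −log10 q of at least 3 the count was 10 members (7.58%), against 36.1% of all domains. The 52 domains kept out only by ESC H3K27me3 had the same median fold, 2.49, and a median highest −log10 q of 1.88. In the mirrored ESC set the median highest −log10 q was 1.89, against 3.05 over all ESC domains. When all domains were ranked by their highest −log10 q, 96 members (72.7%) stood in the lowest 20% of domains and 6 (4.55%) in the top 20%. These values come from the H3K27me3 lists that the rule and the mirrored rule used and are given as description only.

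**Figure D1:**
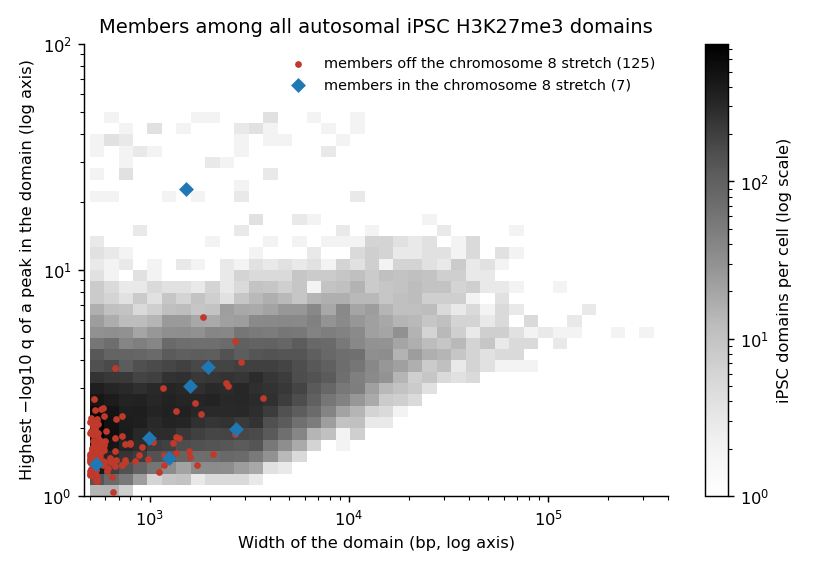
Width of each iPSC H3K27me3 domain in bp on a log axis against the highest −log10 q of its peaks, also on a log axis; shading shows how many of all 43616 domains fall in a cell, red points the members off 137 to 138 Mb of chromosome 8 and blue diamonds the 7 members in that stretch. Most members sit at the left or at the bottom: 78 of the 132 are narrower than 600 bp, 28 reach a −log10 q of 2, and 1 member stands far above the others at 22.8.

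The strongest member lay at chr8:137489100-137490613. It was 1514 bp wide and was made of 2 peaks. The first, at chr8:137489100-137489238, had a fold of 2.74 and a −log10 q of 2.57. The second, of 403 bp at chr8:137490211-137490613, had a fold of 3.97 and a −log10 q of 22.8, which put it at place 262 of the 131632 autosomal iPSC H3K27me3 peaks. This member also had the highest mean fold, 3.66. The next highest −log10 q among members was 6.17, at chr15:92676496-92678343.

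The 4 other members of highest mean fold had 3.48 at chr3:171823709-171824382, 2.97 at chr4:100891741-100892309, 2.88 at chr17:26249364-26249892 and 2.88 at chr15:56809438-56810043. All but the first 2 of the 5 thus stood below 3, within the range of ordinary broad peaks of this list, whose median over all domains was 2.77.

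The 10 widest members reached their width mostly by joining. The widest, chr20:27410312-27414020, spanned 3709 bp with 3 peaks that covered 40.4% of it, and its highest −log10 q was 2.71. ESC H3K27me3 began 3.45 kb from it, and the nearest H3K27ac was 10.9 kb away in iPSC and 10.8 kb away in ESC. The second, chr12:5885444-5888304, spanned 2861 bp with a highest −log10 q of 3.91 and had an iPSC H3K9me3 peak 0.497 kb away. The third, chr8:137918915-137921613, spanned 2699 bp at a −log10 q of 1.97 and was overlapped by H3K27ac peaks of both cell types. The widest member was thus neither the strongest nor far from ESC H3K27me3.

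Among the others, chr15:91120248-91122929 spanned 2682 bp and was 76.3% covered by peaks, with a −log10 q of 1.88 and an ESC H3K27ac peak 0.152 kb away. At chr3:84706745-84709421, 2677 bp wide with a −log10 q of 4.84, peaks covered 16.3%. An ESC H3K9me3 peak lay 64 bp from that member, and it was the most isolated of all members from other iPSC H3K27me3 domains, the nearest being 81.4 kb away. The 2 widths of chr20:23244643-23247120 and chr1:30985447-30987865 were similar, 2478 and 2419 bp, as were their −log10 q values of 3.08 and 3.18. They differed in their distance to ESC H3K27me3, which was 167 kb for the former and 1.15 kb for the latter. The last 3 were chr19:42943416-42945499 (2084 bp, −log10 q 1.53), chr8:137826223-137828175 (1953 bp, 3.71) and chr15:92676496-92678343 (1848 bp, 6.17). Width and strength did not rank the 10 alike.

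Most domains that missed the rule by a single limit were not near misses. The narrowest members were 500 bp (chr19:23845840-23846339), 501 bp (starting at 25620063 on chromosome 16) and 501 bp (starting at 170683767 on chromosome 3), and the widest domains that missed the width limit alone were 499, 498 and 495 bp. The members nearest to H3K4me3 were 1024, 1052 and 1104 bp away, and the nearest that missed this limit alone were 982, 956 and 951 bp away. In all, 1669 domains missed the rule by width alone, with a median width of 273 bp, and 920 by H3K4me3 alone, of which 854 overlapped an H3K4me3 peak. The count of members therefore depends more on the width limit than on the exact distance to H3K4me3.

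H3K27ac is the mark that the rule did not use, although the width limits and the distance from H3K4me3 also bear on it. An iPSC H3K27ac peak overlapped 7 members (5.30%, interval 2.59 to 10.5%), where 11.9% of all iPSC domains were overlapped. An ESC H3K27ac peak overlapped 10 members (7.58%, 4.17 to 13.4%), against 18.4% of all iPSC domains. Peaks of both cell types overlapped 4 members and those of either 13, so 119 members had no H3K27ac peak in either list. H3K27ac at the members was thus less frequent than over all domains, most of which are wider.

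Width and H3K4me3 differ between the members and all domains, and both bear on that comparison. Among domains of 500 to under 600 bp, 4 of the 78 members (5.13%) had iPSC H3K27ac and 4 had ESC H3K27ac, against 9.82% and 13.3% of all domains of that width. At 600 to under 1000 bp, 1 of 26 members (3.85%) had H3K27ac in each list, against 10.8% and 14.04%. In the wider classes the members' ESC shares were close to those of all domains. They were 15% (3 of 20) against 13.98% at 1000 to under 2000 bp. At 2000 bp or more they were 25% (2 of 8) against 25.1%. The iPSC shares there were 5% against 9.48% and 12.5% against 14.7%, with 1 member each. Among the 15473 domains that met every criterion but lay on H3K9me3, the shares were 1.38% in iPSC (1.2 to 1.57%) and 3.90% in ESC (3.6 to 4.21%), below those of the members. Of the 52 domains kept out only by an ESC H3K27me3 peak, 1 had H3K27ac in each cell type (1.92%, 0.340 to 10.1%). In the mirrored ESC set, 31 of 1215 domains (2.55%, 1.80 to 3.6%) had iPSC H3K27ac and 68 (5.60%, 4.44 to 7.03%) had ESC H3K27ac. The interval of the members' iPSC share overlapped that of the mirrored set and that of the 52 and lay above that of the domains on H3K9me3, while the interval of their ESC share overlapped all 3. When the domains were rebuilt from H3K27me3 peaks with a −log10 q of at least 2, 24 members were left and none of them had H3K27ac in either list, which allows a share of up to 12.5%.

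**Figure D2:**
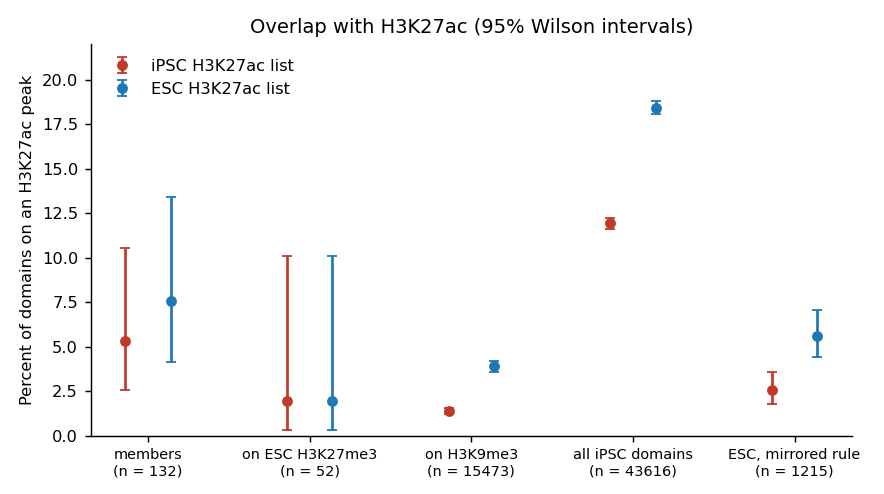
Percent of domains overlapped by an H3K27ac peak of each cell type, with 95% Wilson intervals as bars, for the members, the domains kept out only by ESC H3K27me3 or only by H3K9me3, all iPSC domains and the mirrored ESC set. The members stand at 5.30% for the iPSC list and 7.58% for the ESC list, between the domains on H3K9me3 (1.38% and 3.90%) and all iPSC domains (11.9% and 18.4%).

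Where H3K27ac did overlap, it touched a part of the member. The shared stretch ran from 94 to 476 bp. At chr18:55183380-55183932, a member of 553 bp, the iPSC H3K27ac peak had a fold of 3.58 and the ESC peak a fold of 5.15 with a −log10 q of 20.4, the highest among all H3K27ac peaks on members. The members chr2:52989488-52990010 and chr2:94645271-94646633 also had H3K27ac of both cell types. At chr8:137918915-137921613, 1 iPSC and 3 ESC H3K27ac peaks overlapped the domain. The lists hold both lysine 27 marks at these 4 members, and whether they occur in the same cells, alleles or lines was not tested.

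Within 10 kb the members' shares with H3K27ac were close to those of all domains. An iPSC H3K27ac peak lay within 10 kb of 73 members (55.3%; 60.1% of all iPSC domains) and an ESC H3K27ac peak within 10 kb of 101 (76.5%; 78.8% of all). The median distance was 7.98 kb to iPSC H3K27ac and 3.87 kb to ESC H3K27ac, and 104 members were nearer to an ESC peak against 24 nearer to an iPSC peak. Over all iPSC domains the medians were similar, 7.09 kb and 3.53 kb. The ESC list of this mark is the longer one, and its part in that difference was not tested.

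The members lay closer to ESC H3K27me3 than the domains on H3K9me3, although no member overlapped it. An ESC H3K27me3 peak lay within 10 kb of 49 members (37.1%, 29.4 to 45.6%), where 18.2% of the 33853 iPSC domains with no overlapping ESC peak had one that near. It lay within 1 kb of 6 members, within 5 kb of 25 (18.9%) and within 50 kb of 100 (75.8%). The median distance was 18.1 kb for the members and 54.7 kb for the domains on H3K9me3, of which 15.6% were within 10 kb and 47.7% within 50 kb. In the mirrored ESC set, 728 domains (59.9%) had an iPSC H3K27me3 peak within 10 kb, at a median distance of 7.53 kb. With no H3K4me3 allowed within 5 kb, 57 members were left and 17.5% of them had ESC H3K27me3 within 10 kb, so the share changed with the distance kept from H3K4me3. The rule used ESC H3K27me3, H3K9me3 and H3K4me3, so these distances and shares are a description only.

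Other iPSC H3K27me3 lay at a range of distances. Since domains are joined within 3 kb, the nearest other domain is further than that by construction. It lay within 5 kb of 39 of the 132 members, within 10 kb of 83 and within 20 kb of 109, with a median of 7.41 kb. These distances were not compared with those of all iPSC domains. The flanks give the background: 49 of 132 members had no iPSC H3K27me3 in the 10 kb on either side, as had 20095 of all 43616 iPSC domains, and within 50 kb the counts were 4 and 1749. Mean coverage by iPSC H3K27me3 in the 10 kb on either side was 4.09% for the members and 3.18% for all iPSC domains. In the 50 kb on either side it was 6.04% and 4.61%. A difference between these values was not tested.

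The median distances to H3K4me3 and H3K9me3 were much like those of the mirrored ESC set. The median distance to H3K4me3 was 5.18 kb in iPSC and 4.95 kb in ESC, and 65 members were nearer to an iPSC peak, 65 to an ESC peak and 2 at equal distance. The median distance to H3K9me3 was 6.0 kb in iPSC and 4.14 kb in ESC, and 93 members were nearer to an ESC peak and 39 to an iPSC peak, the ESC list of this mark being the longer with 260371 against 209447 autosomal peaks. In the mirrored set the medians were 5.13 kb to iPSC and 4.59 kb to ESC H3K4me3, and 5.89 kb to iPSC and 4.24 kb to ESC H3K9me3. Close to the domains the shares with iPSC H3K9me3 differed within 1 kb but not further out. An iPSC H3K9me3 peak lay within 1 kb of 15.9% of members (10.6 to 23.1%) and of 7.98% of the mirrored set (6.59 to 9.64%). Within 2 kb the shares were 20.5% and 17.4%, and within 5 kb 43.2% and 44.8%. For ESC H3K9me3 within 1 kb the intervals overlapped, at 15.2% (10.03 to 22.2%) and 10.4% (8.78 to 12.2%). The rule used H3K9me3, so these shares are a description only. With no H3K4me3 of either cell type, H3K9me3 of either cell type or ESC H3K27me3 within 5 kb there were 11 members, and with none within 10 kb there were 5.

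Wider surroundings were compared by coverage. In the 50 kb on either side, iPSC H3K27me3 peaks covered 6.04% of the base pairs on average and ESC H3K27me3 peaks 4.19%, against 4.32% and 1.45% around the domains on H3K9me3. H3K9me3 covered 7.81% in iPSC and 8.83% in ESC, against 12.4% and 13.2%. H3K4me3 covered 7.33% and 7.63%, against 4.01% and 3.98%. The surroundings of the members thus had more H3K4me3 and ESC H3K27me3, and less H3K9me3, than those of the domains on H3K9me3, which the rule had set apart by that mark. H3K27ac covered 1.89% in iPSC and 4.68% in ESC around the members, against 1.51% and 3.04%. The contrast did not hold for the other sets. In the mirrored ESC set, iPSC H3K4me3 covered 7.31%, ESC H3K27me3 7.44% and iPSC H3K9me3 5.63%. Around the 52 domains kept out only by ESC H3K27me3 these values were 12.4%, 15.8% and 5.41%. The averages hide a wide spread: median ESC H3K27me3 coverage around members was 1.01%, and 32 members had none within 50 kb.

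**Figure D3:**
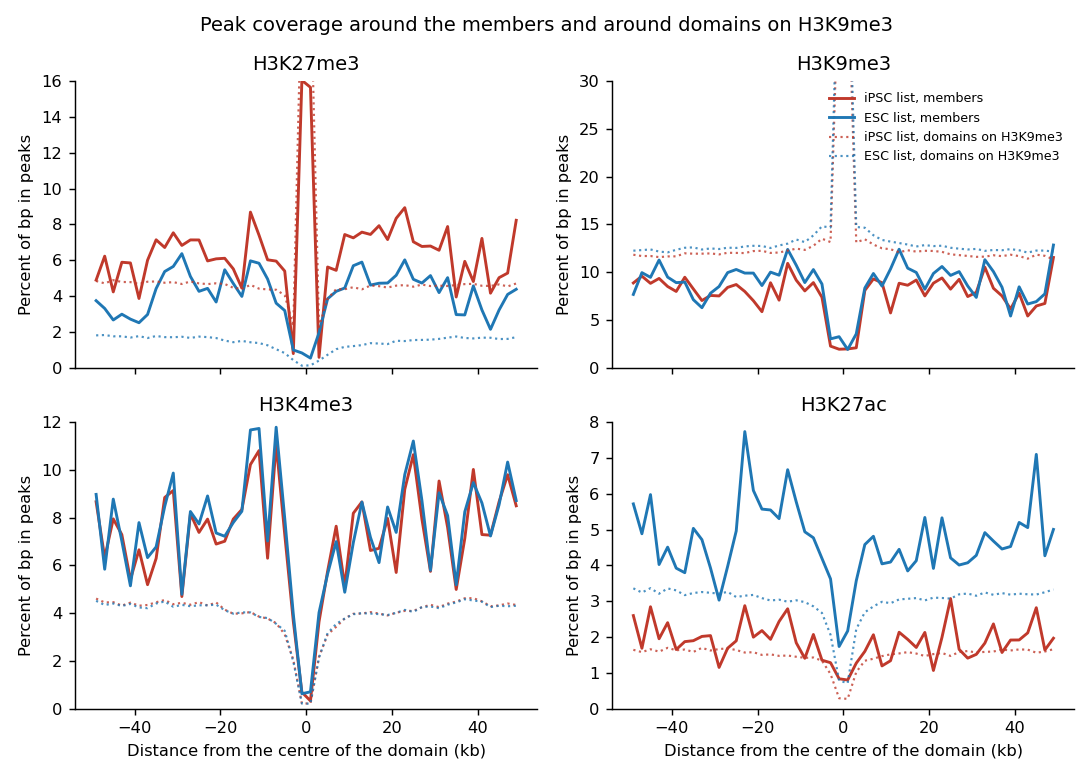
Mean percent of base pairs in peaks, in steps of 2 kb, against the distance in kb from the centre of the domain, for the members (solid) and the 15473 domains on H3K9me3 (dotted), with iPSC lists in red and ESC lists in blue. The H3K27me3 axis is cut at 16% and the H3K9me3 axis at 30%; the dips of H3K9me3, H3K4me3 and ESC H3K27me3 at the centre of the members follow from the rule.

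Members were found on all 20 autosomes but unevenly. Their density was 5.09 per 100 Mb over the autosomes, with a median of 4.07 and an SD of 5.66 over the 20 chromosomes. Chromosome 19 held 14 members, or 27.2 per 100 Mb, the highest density, and chromosome 20 held 9, or 12.5 per 100 Mb. Chromosome 17 had 1 member (1.09 per 100 Mb). Chromosome 19 also had the densest iPSC H3K27me3 domains, 29.5 per Mb against 16.8 over the autosomes, and the members were 0.923% of its 1516 domains against 0.303% overall. H3K9me3 covered 15.6% of chromosome 19 in iPSC and H3K4me3 9.28%, both above the autosomal values. The mirrored ESC domains stood at 46.8 per 100 Mb over the autosomes and at 85.6 on chromosome 19. Their highest density was 113, on chromosome 16.

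**Figure D4:**
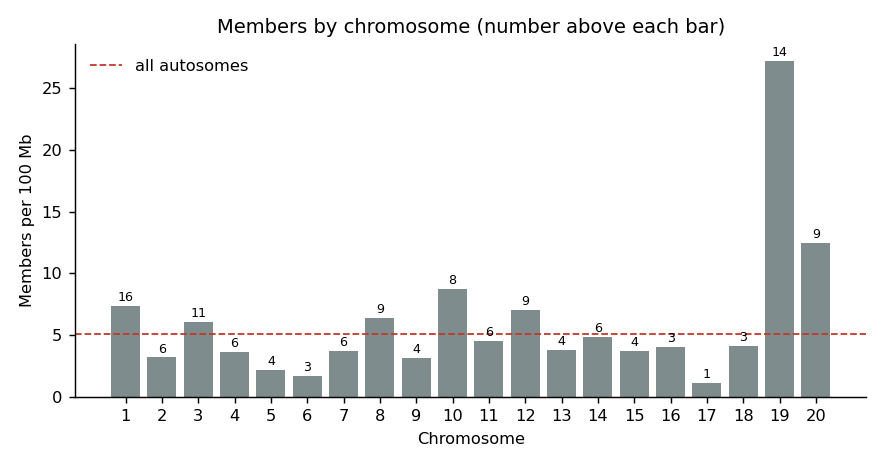
Members per 100 Mb on each autosome as bars, with the number of members above each bar and the density over all autosomes as a dashed line. Chromosome 19 stands at 27.2 per 100 Mb and chromosome 20 at 12.5, against 5.09 over all autosomes.

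Along the chromosomes, most members stood alone. Of the bins of 1 Mb that held members, 116 held 1 and 3 held 2, 1 held 3 and 1 held 7. Bins with a member held a median of 19 iPSC H3K27me3 domains against 15 in bins without one, and the median coverage was higher in them for all 8 lists. It was 3.10% against 2.39% for iPSC H3K27me3, 5.98% against 4.75% for iPSC H3K4me3 and 5.93% against 5.49% for iPSC H3K9me3. The rule used all of these lists. For H3K27ac, which it did not use, it was 2.09% against 1.93% in iPSC and 4.04% against 3.43% in ESC. Within 2 Mb of a chromosome end lay 6 members (4.55%), against 5.39% of all iPSC domains.

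The bin with 7 members was 137 to 138 Mb of chromosome 8. It held 59 iPSC H3K27me3 domains and no domain of the mirrored ESC rule. H3K27me3 peaks covered 10.7% of the bin in iPSC and 3.07% in ESC, and H3K27ac peaks 1.08% in iPSC and 8.72% in ESC. The ESC to iPSC ratio of H3K27ac coverage was 8.05, place 16 of the 2584 full autosomal bins, whose median ratio was 1.82. The H3K27me3 difference of 7.67 percentage points was place 65. H3K9me3 covered 7.97% in iPSC and 12.4% in ESC, and H3K4me3 4.92% and 6.99%. In this bin the iPSC list was thus the higher for H3K27me3 and the lower for the other 3 marks. Over the autosomes the directions were the same except for H3K4me3, which covered 5.42% in iPSC and 5.20% in ESC.

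All 7 members lay in its last part, from 137.4 to 138 Mb, where H3K27me3 covered 14.4% in iPSC and 2.73% in ESC and H3K27ac 1.12% and 9.81%. The strongest member, with its −log10 q of 22.8, was the first of them. ESC H3K27ac peaks overlapped chr8:137540161-137541746 and chr8:137918915-137921613. They lay 0.315 kb from chr8:137693788-137694324, 0.428 kb from chr8:137826223-137828175 and 1.02 kb from chr8:137771645-137772891, 1.82 kb from the strongest member and 11.6 kb from chr8:137973815-137974804. iPSC H3K27ac overlapped chr8:137918915-137921613 and lay 2.97 to 48.6 kb from the other 6. By overlap the counts were thus 2 for ESC and 1 for iPSC, and the 6 members without iPSC overlap were all nearer to an ESC peak. In the bin before, from 136 to 137 Mb, H3K27me3 covered 1.54% in iPSC and 1.38% in ESC, and H3K27ac 3.36% and 9.95%. In the bin after, from 138 to 139 Mb, which held 1 member, H3K27me3 covered 9.78% and 8.22%, and H3K27ac 1.13% and 5.95%. The rule chose members by iPSC H3K27me3 without ESC H3K27me3 and the stretch was set by where they lie, so its H3K27me3 difference is a description only. Of the steps of 100 kb from 138 to 139 Mb, the one with the largest H3K27me3 difference lay 0.760 Mb from the strongest member. It was covered to 12.6% by iPSC peaks and to 0.488% by ESC peaks. At 1.06 Mb the coverage was 6.59% in iPSC and 1.34% in ESC. Most other steps there were near equal. ESC coverage was the higher at 0.560 Mb (11.0% against 7.45% in iPSC) and at 1.26 Mb (13.6% against 12.1%). Coverage by H3K27ac, which the rule did not use, was lower in iPSC in all 3 bins. It was also lower in iPSC over the autosomes, at 2.10% against 3.95% in ESC.

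**Figure D5:**
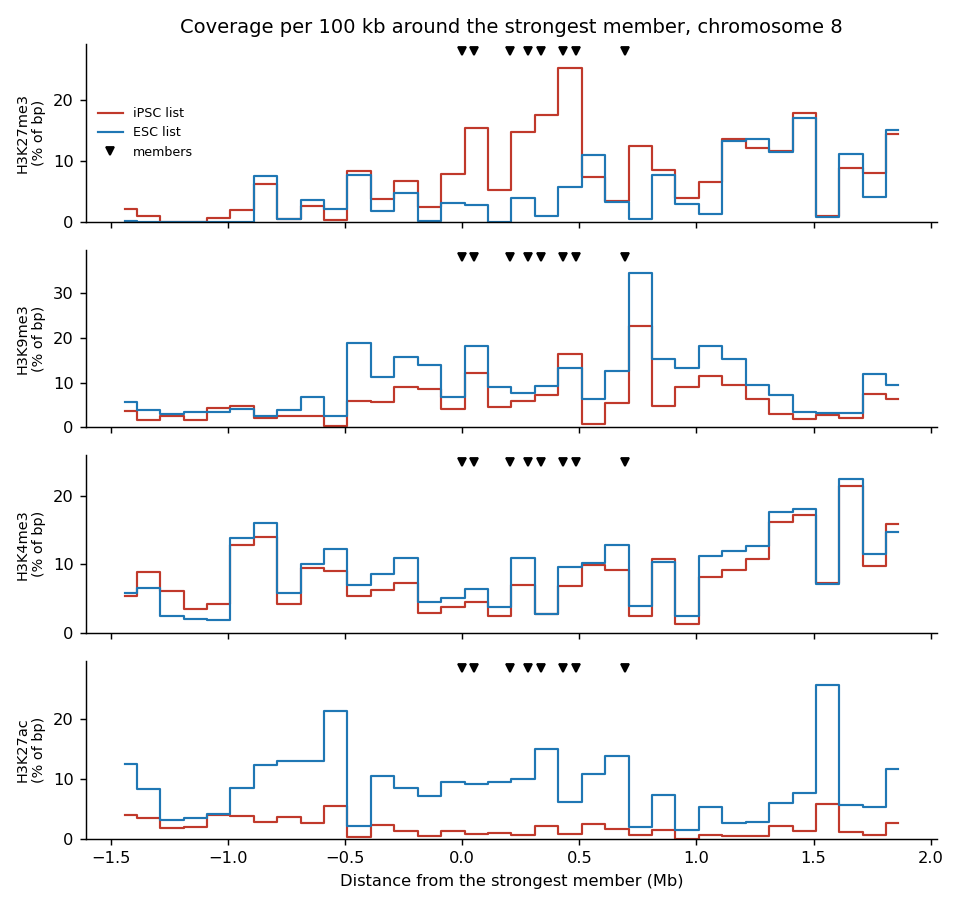
Percent of base pairs in peaks of each mark, in bins of 100 kb, against the distance in Mb from the strongest member, for the iPSC and ESC lists; triangles mark the members. The iPSC H3K27me3 line stands above the ESC line over most of the stretch that holds the 7 members. The ESC H3K27ac line stands above the iPSC line there and along the rest of the plot.

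The bin with 3 members was 14 to 15 Mb of chromosome 12. There the H3K27me3 difference went with H3K9me3: H3K27me3 covered 10.8% in iPSC and 0.450% in ESC, H3K9me3 30.1% and 13.2%, and H3K27ac 0.292% and 1.24%. Of its 60 iPSC domains, 3 were members, at chr12:14380462-14381192, chr12:14455285-14455831 and chr12:14581742-14583320, and their nearest ESC H3K27me3 peaks were 160, 235 and 359 kb away. The first of the bins with 2 members, 3 to 4 Mb of chromosome 19, was of another kind. Its members, chr19:3153299-3153817 and chr19:3193918-3194456, had ESC H3K27me3 at 4.99 and 17.6 kb, and an ESC H3K27ac peak lay 11 bp from the former. Members of 1 bin thus lay in the same coverage by construction but differed among themselves in the distance to the nearest peaks.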

How the data were processed

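The analysis started from the 8 deposited peak lists, which are in the narrow (H3K4me3, H3K27ac) and broad (H3K27me3, H3K9me3) layouts of MACS2. Each peak has a fold enrichment over background, a ratio, and a −log10 q, both as deposited by the authors. The submitters' processing notes name deepTools, MACS2, Picard and SAMtools 1.10. For the aligner, the build, the thresholds and the pooling of libraries, nothing was given in the sources used here.

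Peaks were joined and compared with Python 3.11.15, numpy 2.4.6 and pandas 2.3.3, with coordinates counted from 1 and touching peaks at a distance of 1 bp. A single shared base pair counted as overlap. The interval code was tested on simulated data and against bedtools. Chromosome lengths are the furthest end of any peak. The members, comparison sets and measures were chosen with earlier results of these data known. Regions named are the 10 widest members, the 5 of highest mean fold (weighted by peak width), the 3 bins of 1 Mb with the most members, ties going by chromosome and start, and the 3 regions nearest to each limit on either side; members overlapped by H3K27ac, those in the named bins and the strongest by −log10 q were named after their values were seen. The gene table at hand is of the assembly Panubis1.0, whose last gene and the last peak ended over 5 Mb apart on 12 of 20 autosomes, so no gene is named. Other joining distances, widths, q limits and distances were tried as alternatives.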

Additional observations from a re-analysis of the deposited data

Results flagged for a closer look

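The rule was limited to chromosomes 1 to 20. On sequence outside them, 16 of 9695 iPSC H3K27me3 domains of at least 500 bp on unplaced scaffolds met the same criteria (0.165%, Wilson interval 0.102 to 0.268%), each on a scaffold of its own. Their median width was 824.5 bp and the median of their highest −log10 q was 1.93. On the X chromosome 0 of 763 domains met the criteria, which allows a share of up to 0.393% when 3 domains are taken as the limit for a count of 0, and up to 0.501% by the Wilson interval. The scaffolds are mentioned because they lie outside the data described above.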

How the results depend on the processing

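The number of members (132) and of mirrored ESC domains (1215) depended strongly on the limits, with more ESC than iPSC domains under each alternative run for both. Joining overlapping or touching peaks alone gave 249 members and 2500 ESC domains, joining within 1 kb gave 204 and 1898, and joining within 10 kb gave 49 and 566. No minimum width gave 1801 and 5515, a minimum of 1000 bp 28 and 485, H3K27me3 peaks with a −log10 q of at least 2 gave 24 and 508 and of at least 3 gave 4 and 108, and no H3K4me3 within 5 kb 57 and 478. Using only stronger excluding peaks gave 336 members. The median width of 570 bp became 542 bp on joining within 10 kb, 285 bp with no minimum width, 1591.5 bp with a minimum of 1000 bp, 628.5 bp at a −log10 q of at least 3 and 605 bp with stronger excluding peaks. H3K27ac of either cell type overlapped 0% of members at a −log10 q of at least 2 or 3. With so few members this allows shares of up to 12.5% and 75%, above the main shares. ESC H3K27ac overlapped 17.9% of the members of at least 1000 bp. Of all iPSC domains it overlapped 13.98% at 1000 to under 2000 bp and 25.1% at 2000 bp or more. Within the intervals but over 1.5 times from the main share were 3.21% (iPSC) and 12% (ESC) with touching peaks alone joined, 8.16% (iPSC) on joining within 10 kb, 8.77% (iPSC) with no H3K4me3 within 5 kb and 4.55% (ESC) with H3K27ac peaks of a −log10 q of at least 5. The share within 10 kb of ESC H3K27me3 (37.1%) was 22.4% on joining within 10 kb, 50% at a −log10 q of at least 2 and of at least 3, 17.5% with no H3K4me3 within 5 kb, 46.1% where ESC H3K27me3 had to cover at least 50% of a domain to remove it, and 28.4% with none within 3 kb. Chosen after seeing the data were the iPSC list at the length of the ESC list, the omission of 137 to 138 Mb of chromosome 8 and the repeats for ESC. The first gave 13 members, of which 0% had H3K27ac of either cell type and 61.5% had ESC H3K27me3 within 10 kb. That count of 0 allows a share of up to 23.1%. The omission left 125 members and moved no other value beyond its interval. No paired analysis was possible because each deposited list stands for all libraries of a mark in a cell type, and for the same reason no library could be left out. Absence of a peak is not absence of the mark, and no list shows how deep its libraries were.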
